A study of Mus musculus with 5 samples.

Results

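Secretoglobins are small secreted proteins, and 3 of their genes were followed here: Scgb1a1 (club cell secretory protein, also called uteroglobin or CC10), Scgb3a1 and Scgb3a2. They were taken as the 3 rows of 32285 in the deposited single-cell count matrices that carry these symbols, and they were chosen from measured values in these same lungs, including the contrast between genotypes, so their levels and differences are given as description with no test. The libraries came from dissociated whole lungs of E18.5 mouse embryos, 1 library per embryo, with 2 embryos heterozygous for Zswim8 (Zswim8+/-, called Het1 and Het2) and 3 homozygous for the knockout allele (Zswim8-/-, called KO1, KO2 and KO3). Values per library are given in that order, Het libraries first. All 5 embryos therefore carried at least 1 mutant Zswim8 allele, and wild-type lungs were not analysed here. Zswim8 encodes the substrate receptor of a ubiquitin ligase that acts in microRNA decay. How the allele was made is not given in the sources used here.

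In the mouse lung, secretoglobins are known from the airway lining. Club cells (airway secretory cells) release Scgb1a1 and Scgb3a2 in bulk, Scgb3a2 appears early in airway development, and Scgb3a1 is known from mucous-type secretory cells of the large airways. The transcription factors Nkx2-1, Foxa1, Foxa2 and Cebpa are known to act on genes of this family. Red blood cells do not make these proteins, so secretoglobin molecules counted with red-cell barcodes serve as a measure of RNA that was free in the cell suspension.

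Of the 34 matrix rows whose symbol begins with Scgb, 30 held no unique molecular identifier (UMI, 1 counted RNA molecule) in any library. The 4 with UMIs were the 3 genes described here and Scgb1c1. In the GENCODE M21 annotation of GRCm38, Scgb1a1 lies on the minus strand at chr19:9083636-9087958, Scgb3a1 on the plus strand at chr11:49663610-49665118 and Scgb3a2 on the plus strand at chr18:43764289-43767399, each as a protein-coding gene. The reads come from the 3′ ends of transcripts, so UMIs are not divided by gene length, and where these genes are set side by side it is as UMI counts.

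The libraries held 8722 to 13539 barcodes and 56608582 to 93708304 UMIs, and 3051 to 4634 cells per library were kept. Pairs of libraries shared 17 to 44 barcode sequences. Het1, Het2 and KO3 came from male embryos and KO1 and KO2 from female embryos by Xist and Y-linked UMIs, so sex and genotype are partly confounded. Zswim8 itself was at 37.9 ± 1.07 CPM (SD, n = 2) in Het sums, beside 38.9 ± 1.08 (SD, n = 3) for KO. The allele is not described in the sources used here, so this level checks nothing about the labels.

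Airway cells were found by clustering without the 3 genes. The club-like cluster (39 and 27 Het cells against 25, 22 and 22 KO cells) was led by Upk3a, Krt15, Lrrc26, Cyp2f2 and Hp, and 4 of its 10 leading genes (Krt15, Cyp2f2, Lypd2 and Chad) are on the club marker list. The ciliated-like clusters held 81 and 44 Het and 41, 44 and 34 KO cells, led by genes of centriole and cilium assembly such as Deup1 and Rsph1. Ciliated-like barcodes were deep, with medians of 43219 to 71232 UMIs per library and a highest barcode of 540422, against medians of 12190 to 21385 in club-like cells. Between 58.5% and 79.5% of ciliated-like cells per library, and 28% to 48.1% of club-like cells, carried 3 or more marker genes of another lineage. Whether these barcodes each hold 1 cell was not tested.

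Together the 3 genes made up a large part of the RNA of club-like cells: 5.19% and 7.23% of all UMIs in the Het against 3.37%, 5.51% and 4.91% in the KO libraries. In ciliated-like cells the share was 3.35% and 4.16% in the Het libraries and 1.54%, 1.6% and 1.63% in the KO libraries. The shares of the Het and KO libraries overlapped in club-like cells and did not overlap in ciliated-like cells.

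Scgb1a1 stood at 557 and 779 UMIs per club-like cell in the Het against 205, 281 and 426 in the KO libraries. Ciliated-like barcodes held 1036 and 1458 UMIs of Scgb1a1 each in the Het libraries and 264, 388 and 233 in the KO libraries. Per barcode the ciliated-like level was thus above the club-like level in 4 of 5 libraries, and below it in KO3. Relative to all other RNA the club-like level was the higher in every library: 21839 and 28343 CPM of non-haemoglobin UMIs in Het club-like cells against 15235 and 16311 in Het ciliated-like cells, and 12248, 15340 and 19908 against 5241, 4636 and 4454 in the KO libraries.

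Scgb3a2 was also concentrated in these classes. Its level was 776 and 1204 UMIs per club-like cell in the Het against 360, 731 and 629 in the KO libraries. Ciliated-like barcodes held 1237 and 2215 UMIs of Scgb3a2 each in Het libraries and 514, 951 and 613 in KO libraries, so the 2 classes did not overlap in Het libraries and did in KO libraries. Counting error was small beside the spread between libraries: the 95% exact Poisson interval of Scgb1a1 in Het1 club-like cells ran from 21550 to 22131 CPM (counting error only).

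**Figure D1:**
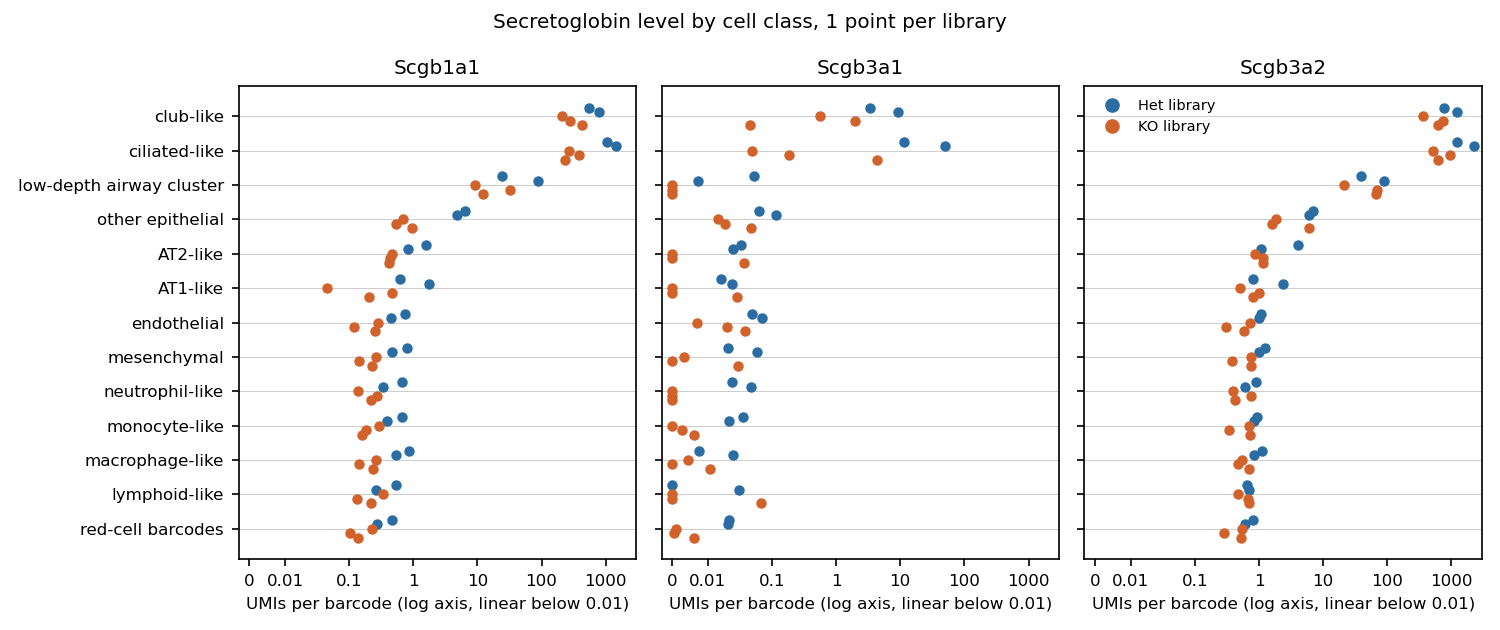
UMIs per barcode (horizontal log axis, linear below 0.01) of each secretoglobin in 12 cell classes and in red-cell barcodes, 1 point per library, Het in blue and KO in orange. The airway classes stand at the top of each panel, and Scgb1a1 in classes from endothelial to lymphoid-like cells lies close to the 0.102 to 0.47 UMIs of red-cell barcodes.

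A further cluster carried secretoglobin RNA at low depth. It was led by airway genes including Cyp2f2, Tmem212 and Foxj1 and was left unnamed by the rule for naming lineages. Its cells held far fewer UMIs than others (medians of 1188 to 2092 per library). Its Scgb1a1 level was 13978 and 35559 CPM of non-haemoglobin UMIs in the Het against 4640, 15215 and 3007 in the KO libraries, with overlapping groups. The cluster held 228 and 137 cells in the Het libraries and 47, 47 and 7 in the KO libraries, which is 4.92% and 3.37% of kept cells against 1.54%, 1.45% and 0.18%.

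The level in other cells was set against that of red-cell barcodes of the same library. Red-cell barcodes held 0.47 and 0.274 UMIs of Scgb1a1 each in the Het against 0.229, 0.102 and 0.14 in the KO libraries. For Scgb3a2 the values were 0.814 and 0.598 in the Het and 0.536, 0.284 and 0.52 in the KO libraries. Over the 24 to 30 clusters per library with at least 20 cells that were neither epithelial nor the low-depth airway cluster, the median cluster held 1.26 to 1.79 times the red-cell level of Scgb1a1 and 1.27 to 1.63 times that of Scgb3a2. The highest of these was the erythroid cluster of Het1 (28 cells), at 7.14 times the red-cell level of Scgb1a1 and 5.53 times that of Scgb3a2. With 7 cells in Het2 that cluster was under the 20 cells set, and stood at 16.7 and 12.7 times. For Scgb3a1 the median cluster held 0 to 1.89 times its red-cell level, and the highest 3.77 to 57.1 times. Endothelial cells were at 2.32 to 39.6 times. All red-cell barcodes of KO1 together held 2 Scgb3a1 UMIs, as did those of KO2, so these multiples rest on few UMIs. Barcodes over the mitochondrial limit held 5.39 to 15 times the red-cell level of Scgb1a1 and 9.73 to 20.5 times that of Scgb3a2. Scgb1a1 per endothelial cell was 0.601 ± 0.21 UMIs (SD, n = 2) for Het, beside 0.218 ± 0.0868 (SD, n = 3) for KO, and red-cell barcodes gave 0.372 ± 0.139 and 0.157 ± 0.0656. Both Het libraries were thus above all KO libraries in endothelial cells and in red-cell barcodes as well.

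Alveolar type 2 (AT2)-like cells, the surfactant-making cells, held 1.57 and 0.836 UMIs of Scgb1a1 per cell in the Het and 0.471, 0.432 and 0.415 in the KO libraries. These levels were 2.05 to 4.25 times the red-cell level of the same library. Scgb3a2 in AT2-like cells reached 4.12 UMIs per cell in Het1 but 1.08 in Het2, within the range of the 0.853, 1.16 and 1.17 of the KO libraries. One library thus set the Het mean of Scgb3a2 in this class. Alveolar type 1-like cells held 0.611 and 1.77 UMIs of Scgb1a1 in the Het against 0.0455, 0.464 and 0.203 in the KO libraries, where KO1 rests on 1 UMI, and Het2 was at 6.46 times its red-cell level. Epithelial cells outside the named classes were higher, with 6.5 and 4.84 UMIs of Scgb1a1 per cell in the Het and 0.686, 0.534 and 0.958 in the KO libraries. These were 13.8 and 17.6 times the red-cell level in the Het libraries and 2.99 to 6.86 times in the KO libraries. Scgb3a2 in the same cells was at 8.55 and 9.93 times in the Het and 3.44, 5.59 and 11.4 times in the KO libraries. Their median depth was 21093 to 42465 UMIs per library.

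The balance of Scgb3a2 to Scgb1a1 was compared across classes and libraries, as UMIs of the same cells. In club-like cells there were 1.39 and 1.55 UMIs of Scgb3a2 per UMI of Scgb1a1 in the Het against 1.76, 2.6 and 1.48 in the KO libraries. Ciliated-like barcodes had 1.19 and 1.52 in the Het and 1.95, 2.45 and 2.64 in the KO libraries. Red-cell barcodes had 1.73 and 2.18 in the Het and 2.33, 2.79 and 3.72 in the KO libraries. KO ratios lay above both Het ratios in ciliated-like and red-cell barcodes, and overlapped them in club-like cells.

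**Figure D2:**
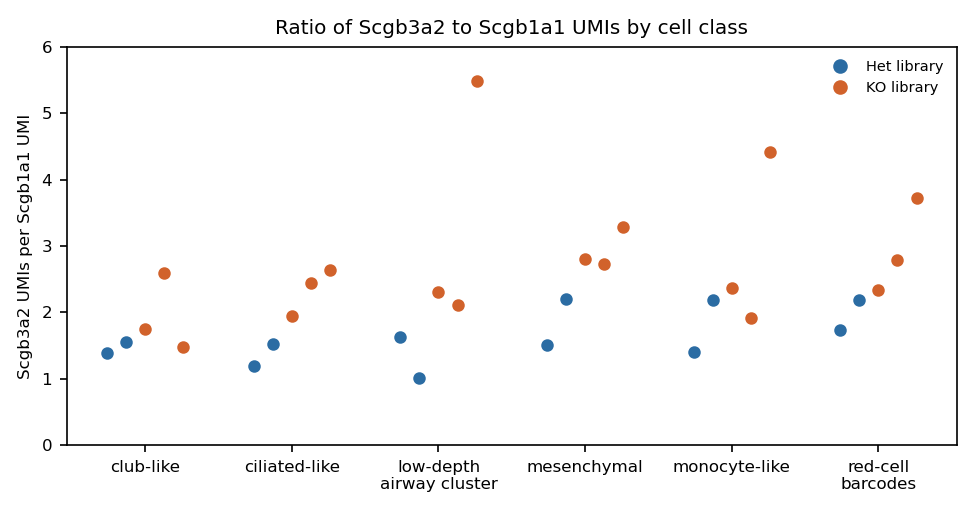
UMIs of Scgb3a2 per UMI of Scgb1a1 (vertical axis, starting at 0) in 6 cell classes, 1 point per library, Het in blue and KO in orange. KO points lie above Het points in ciliated-like, low-depth airway, mesenchymal and red-cell barcodes. In club-like cells KO3 at 1.48 falls between the Het libraries, and in monocyte-like cells KO2 at 1.91 does.

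The genotypes were compared on UMIs summed per library, as CPM (counts brought to a common library total, scaled by edgeR's TMM), and log2 fold changes are KO relative to Het from edgeR with their standard error (SE). In whole-library sums Scgb1a1 was at 1875 and 1637 in the Het against 432, 487 and 279 in the KO libraries, a log2 fold change of -2.14 (SE 0.226). Scgb3a2 was at 2362 and 2405 in the Het and 834, 1206 and 592 in the KO libraries, a log2 fold change of -1.44 (SE 0.27). Scgb3a1 had the fewest UMIs of the 3, at 19.4 and 42.2 in the Het and 0.646, 1.17 and 3.4 in the KO libraries, a log2 fold change of -4.07 (SE 0.631). For all 3 genes every KO library lay below both Het libraries, which 23.8% of the 17734 genes tested also did. In such sums fewer cells of a type and less RNA per cell cannot be told apart.

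Summing epithelial cells alone gave smaller differences for the 2 abundant genes. Scgb1a1 was at 5210 and 4788 in Het and 1933, 1474 and 1048 in KO epithelial sums (log2 fold change -1.75, SE 0.215). Scgb3a2 was at 6446 and 7286 in Het and 3658, 3672 and 2159 in KO epithelial sums (-1.12, SE 0.21). Scgb3a1 kept a log2 fold change of -4.09 (SE 0.555), from 52.8 and 135 in Het to 2.17, 3.4 and 9.86 in KO. The groups did not overlap for any of the 3, against 21.5% of 14981 genes.

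Within club-like cells the differences were smaller again. Scgb1a1 was at 21703 and 29301 in the Het against 12085, 14588 and 20214 in the KO libraries, a log2 fold change of -0.71 (SE 0.152). Every KO library lay below both Het libraries, with KO3, the KO library from a male embryo, nearest to them. With sex as a covariate the Scgb1a1 value was -0.34, without Het2 it was -0.47, and with stricter cell filters it was -1.23. Scgb3a2 was at 30242 and 45292 in Het and 21219, 37927 and 29859 in KO club-like sums (-0.35, SE 0.161), and the groups overlapped. Without Het2 this Scgb3a2 value was -0.02. Scgb3a1 was at 132 and 350 in Het and 33, 101 and 2.16 in KO club-like sums (-2.41, SE 0.468), and the value was -6.65 with sex as a covariate, -1.56 without Het2 and -3.79 without KO2. Of these Scgb3a1 UMIs, 1 cell held 97% in Het1, 54.6% in Het2, 78.6% in KO1 and 88.4% in KO2, and KO3 had 1 UMI. So 2 of the 3 genes had groups that did not overlap, against 10.6% of 5610 genes lower in KO. For Scgb3a1 this rests on these few cells.

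The sums weight each cell by its depth, so single cells were also described. The median club-like cell held 230 and 269 UMIs of Scgb1a1 per 10000 UMIs in the Het against 94.4, 119 and 145 in the KO libraries. The mean over cells was 229 and 303 in Het and 113, 189 and 300 in KO libraries, so the medians did not overlap between genotypes and the means did. In KO3 the highest cell reached 1707 Scgb1a1 UMIs per 10000. For Scgb3a2 the medians were 370 and 378 in Het and 190.5, 361 and 267 in KO libraries. The number of club-like cells, 22 to 39 per library, limits the precision of all these values.

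The log2 fold changes in ciliated-like cells were further from 0 than in club-like cells for each gene, and this difference between classes was not tested. Scgb1a1 was at 15164 and 16687 in the Het against 5341, 4530 and 4349 in the KO libraries, a log2 fold change of -1.75 (SE 0.129). Scgb3a2 was at 18103 and 25357 in Het and 10407, 11098 and 11469 in KO sums (-0.98, SE 0.147). Scgb3a1 was at 169 and 561 in Het and 0.988, 2.12 and 81.9 in KO sums (-3.88, SE 0.975). Of these Scgb3a1 UMIs, 1 barcode held 92.3% in Het1, 59% in Het2 and 95.3% in KO3, and the value was -7.69 without KO3 and -2.73 without Het2. All 3 genes had groups that did not overlap, against 12.8% of 12355 genes lower in KO. The median ciliated-like cell held 86.4 and 54.1 Scgb1a1 UMIs per 10000 in Het and 6.05, 14 and 5.43 in KO libraries.

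Finer clustering divided the ciliated-like cells into 3 sub-clusters. Cells led by Sntn and Tmem212, genes of mature cilia, held 16003 and 13034 Scgb1a1 CPM in the Het against 4762, 6632 and 6343 in the KO libraries. Cells led by Cdc20b and Foxn4, genes of early multiciliated cells, held 17932 and 21715 in Het and 6877, 5227 and 6058 in KO libraries. The third sub-cluster, led by Deup1 and Agr2, held 7703 and 17390 in Het and 316, 1641 and 3033 in KO libraries. For Scgb1a1 KO lay below Het in all 3, which had 6 to 40 cells per library. Scgb3a2 overlapped in the third, at 7883 and 23938 CPM in Het and 2986, 7091 and 11270 in KO libraries. Across ciliated-like cells of 1 library, Scgb1a1 went with the summed airway secretory genes (Pearson r of 0.574 to 0.778 over libraries). It went against the summed ciliated cell genes (r of -0.703 to -0.34). Both were taken as log-scaled UMIs per 10000 that share each cell's depth. Scgb1a1 also went with the log depth of the ciliated-like barcode (r of 0.413 to 0.673), beside -0.0302 to 0.121 in club-like cells.

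**Figure D3:**
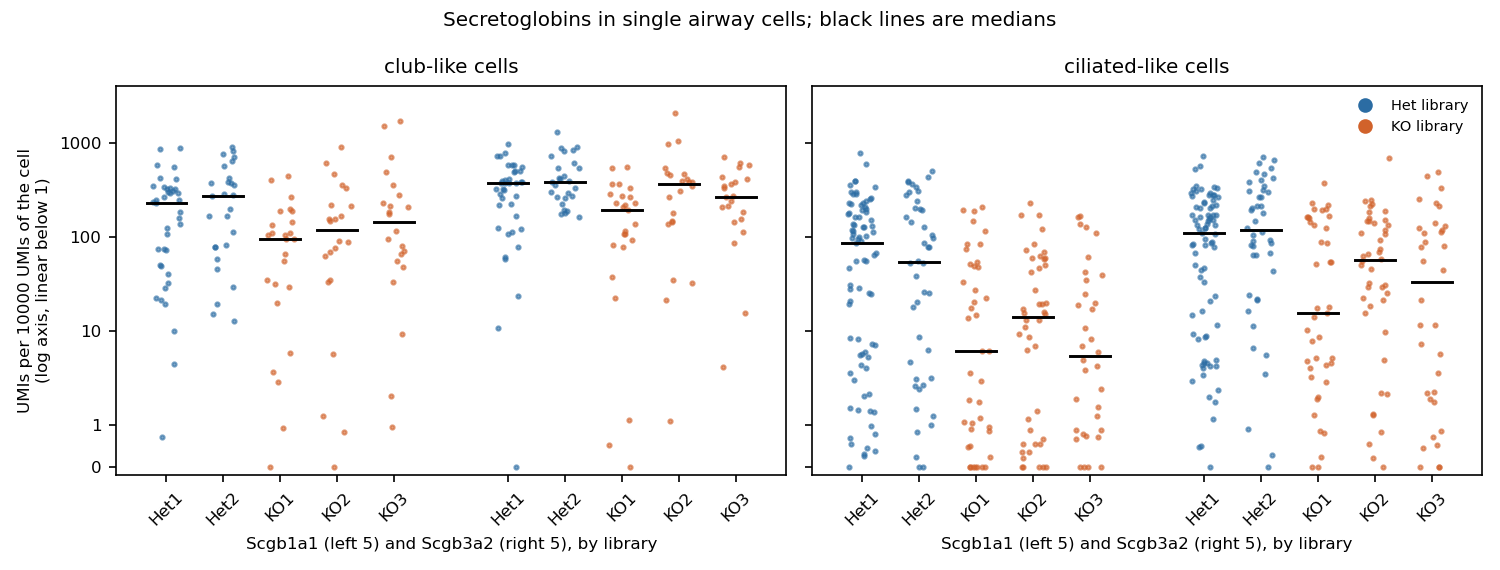
UMIs of Scgb1a1 and Scgb3a2 per 10000 UMIs of the cell (vertical log axis, linear below 1) in each club-like and ciliated-like cell, by library, with black lines at medians, Het in blue and KO in orange. Scgb1a1 medians of club-like cells are 230 and 269 in Het against 94.4 to 145 in KO, and the Scgb1a1 medians of ciliated-like cells are 54.1 and 86.4 in Het against 5.43 to 14 in KO.

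Most Scgb1a1 UMIs of a library sat in its airway cells. Ciliated-like barcodes held 64.9% and 58.9% of all deposited Scgb1a1 UMIs in the Het against 49.4%, 61.1% and 29.8% in the KO libraries. Club-like cells held 16.8% and 19.3% in the Het and 23.4%, 22.1% and 35.3% in the KO libraries. Removed doublets held 19% of the Scgb1a1 UMIs of KO3 and at most 0.855% in the other libraries, and 1 KO3 barcode among them held 3417 Scgb1a1 UMIs. Barcodes over the mitochondrial limit, which were not kept, held 14507 and 10393 Scgb3a2 UMIs in the Het against 15463, 8495 and 13548 in the KO libraries. All deposited Scgb3a2 UMIs were 172725 and 163522 in the Het against 50835, 72887 and 62984 in the KO libraries. With every deposited barcode counted, the whole-library log2 fold changes were -1.98 for Scgb1a1, -3.6 for Scgb3a1 and -1.2 for Scgb3a2.

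Few barcodes carried much of the signal. The 11 to 19 barcodes richest in Scgb1a1 in a Het library, and 9 to 12 in a KO library, held 50% of its UMIs. For Scgb3a2 this took 24 and 14 barcodes in the Het against 18, 13 and 19 in the KO libraries. Scgb3a1 was more concentrated, with 2 barcodes holding 50% of its UMIs in Het1, Het2 and KO2, 4 in KO3 and 11 in KO1.

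Scgb3a1 stood at 3.38 and 9.3 UMIs per club-like cell in Het and 0.56, 1.95 and 0.0455 in KO libraries. Ciliated-like barcodes held 11.5 and 49 each in Het and 0.0488, 0.182 and 4.38 in KO libraries, and red-cell barcodes 0.0212 and 0.0207 against 0.00107, 0.000504 and 0.00601. These means rest on few cells. Over all deposited barcodes it had 3196 and 2987 UMIs in the Het against 122, 99 and 484 in the KO libraries. Barcodes with at least 10 Scgb3a1 UMIs numbered 11 and 13 in the Het and 2, 2 and 9 in the KO libraries. The leading barcode of Het1 held 1007 Scgb3a1 UMIs and was removed as a doublet, and that of Het2 held 1272 within a ciliated-like barcode of 462422 UMIs. In KO1, KO2 and KO3 the leading barcodes held 12, 38 and 142. In club-like cells the median Scgb3a1 level was 0 in every library.

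The barcode richest in Scgb3a1 held more Scgb3a2 than Scgb1a1 in every library. Besides Scgb3a1 it held 1594 Scgb3a2 but 3 Scgb1a1 UMIs in Het1, 18609 and 57 in Het2, 1208 and 192 in KO2, and 3499 and 35 in KO3. Muc5b, the main mucin of airway mucus, had 372, 46, 10 and 27 UMIs in the same 4 barcodes. In KO1 the leading barcode was a high-mitochondrial one of 3099 UMIs, with 40 Scgb3a2, 4 Scgb1a1 and 0 Muc5b UMIs. Barcodes over the mitochondrial limit held 22% and 8.74% of all Scgb3a1 UMIs in the Het against 75.4%, 36.4% and 47.5% in the KO libraries. Leaving out the 2 kept cells richest in Scgb3a1 from each library moved its whole-library log2 fold change from -4.07 to -3.52.

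**Figure D4:**
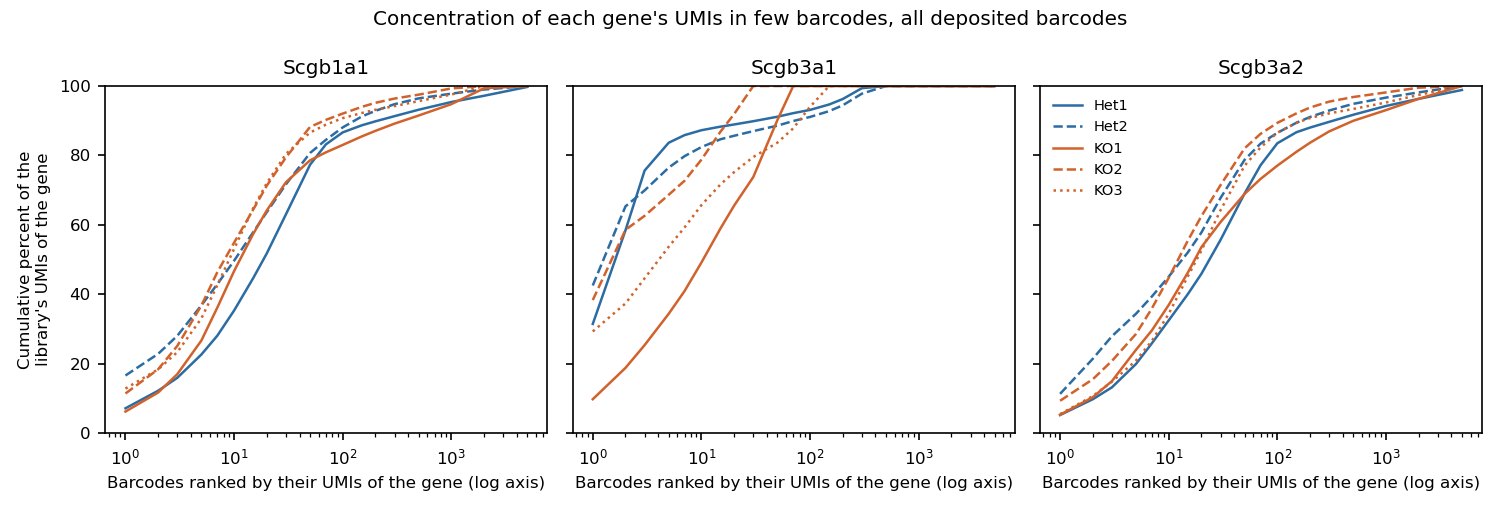
Cumulative percent of each library's UMIs of a gene (vertical axis) against barcodes ranked by their UMIs of that gene (horizontal log axis), all deposited barcodes, Het in blue and KO in orange. In each library the first barcode holds a larger share for Scgb3a1 than for the other 2 genes, at 31.5% and 42.6% in the first barcode of Het1 and Het2, and at 9.84% to 38.4% in the KO libraries.

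A stretch of the Scgb3a1 promoter is shown because this gene had the largest difference and its start region is the 1 of the 3 held in the RefSeq promoter table used (GRCm38.p6). In the 250 bases before the start at position 49663595 of chromosome 11, the NKX2-1 core motif CTCAAG was searched on both strands and found once, on the minus strand, 172 bases before the start. It reads as CTTGAG, in capitals, in the 30 plus-strand bases chr11:49663411-49663440.
Scgb3a1: aaaggcctagcaCTTGAGttcaggagaccc
The same motif was found in 13.3% of 32851 promoter windows of equal length. The core promoter letters TATAAA were also searched on both strands. So were the FOXA core TGTTTAC and, for C/EBP, TTNNGNAA. None of the 3 was in this window, and they were held by 12.4%, 3.17% and 36.8% of all windows.

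Over 70 sums of 15 classes and 5 libraries with at least 20 cells, Scgb1a1 and Scgb3a2 went together (Pearson r of 0.986 of log2(CPM + 1)). Outside the family, the genes most like Scgb1a1 were Cyp2f2 (a club cell cytochrome P450, r = 0.953), Upk3a (0.95), Lrrc26, Cited1 and Aqp4 (0.923). The same 5 genes were nearest to Scgb3a2, from Upk3a at 0.972 to Aqp4 at 0.949. Scgb3a1 was less like its relatives (r of 0.673 with Scgb1a1 and 0.664 with Scgb3a2). Its nearest genes were Reg3g (an antimicrobial lectin, r = 0.889), Klk11, Vtcn1, Cxcl17 and Nwd2 (0.798). Sums of 1 library share its free RNA and depth. The r values of Scgb3a1 also rest on few UMIs and few barcodes. Its AT2-like sums, for example, held 0 to 7 UMIs. In Het1, 1 barcode held 92.3% of its ciliated-like UMIs and 1 cell 97% of its club-like UMIs.

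Among club-like cells within a library, Scgb1a1 went most with Hp (haptoglobin, mean r over libraries 0.714, range 0.555 to 0.813). Next were Sftpb, Trf, Mgst1 and Cldn10 with mean r of 0.479 to 0.434. Scgb3a2 went most with Wfdc2 (mean r 0.699, range 0.51 to 0.822) and Trf (0.671), and then with Lypd2, Mgst1 and Nupr1. The correlation of Scgb1a1 with Scgb3a2 across club-like cells was 0.728 and 0.198 in the Het against 0.604, 0.242 and 0.51 in the KO libraries. For Scgb3a1 the highest mean r was 0.428, with Lcn2, and it ranged from -0.065 to 0.852 over libraries, in cells whose median Scgb3a1 level was 0.

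Other airway secretory genes were compared with the secretoglobins from a list of 32, of which 12 also served to name club-like cells. In club-like sums 25 were tested: 3 fell, 1 rose and 21 did not pass the edgeR test (adjusted p under 0.05). With mixed cells (3 or more markers of another lineage) left out, no gene was called in these sums, so each of these calls ended (0 of 3631 genes, with 173 at an unadjusted p under 0.05 in edgeR). Across all 5610 genes 1.07% were called lower and 0.16% higher. The list's median log2 fold change was -0.2 against -0.0043 for all genes. Fmo2, a flavin monooxygenase, fell from 148 ± 7.33 (SD, n = 2) to 43.9 ± 11.6 CPM (SD, n = 3), a log2 fold change of -1.74 (SE 0.244, edgeR adjusted p = 5.62e-05). Cbr2 (carbonyl reductase, -0.78, edgeR adjusted p = 0.00307) and Gsta3 (a glutathione transferase, -1.25, edgeR adjusted p = 0.0212) also fell. Krt15, a keratin, rose by 0.98 on the log2 scale (edgeR adjusted p = 0.0104).

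Genes of neuroendocrine cells moved with genotype in the club-like sums. Of 11 genes of that list, 5 were tested and all 5 were called lower in KO, among them the prohormone convertase gene Pcsk1, against 1.07% of all genes tested there. UMIs of the list summed to 503 and 319 CPM in Het club-like cells and to 4.94 to 14.3 in KO. The 4 cells with at least 3 of these genes were 3 of Het1 and 1 of Het2. Without them, calls in club-like sums went from 69 to 12 genes, of which 10 were lower, and 0 secretory genes rose and 3 fell. The log2 fold changes then were -0.97 for Scgb1a1, -2.67 for Scgb3a1 and -0.55 for Scgb3a2.

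Of 18 transcription factors of the secretoglobin-producing epithelium tested in club-like sums, 0 were called by edgeR (1 at an unadjusted p under 0.05, and 0 with DESeq2), beside 1.07% lower and 0.16% higher among all genes. Nkx2-1, the lung lineage factor, was at 233 ± 32.9 (SD, n = 2) CPM for Het, beside 225 ± 28.5 (SD, n = 3) for KO (log2 fold change -0.05, SE 0.207). Foxa1 was at 68.3 ± 1.92 and 65.9 ± 22.6, Foxa2 at 61.5 ± 3.63 and 49 ± 16.2, and Cebpa at 24.2 ± 3.17 and 34.5 ± 17.2. Their edgeR adjusted p values ran from 0.958 to 0.997. In AT2-like sums 4 of 19 factors were called by edgeR (2 with DESeq2), with Ehf, Foxa1 and Cebpd lower and Foxp2 higher, against 2.38% lower and 1.4% higher among all genes. Foxa1 there was at 69.2 and 84.7 CPM in the Het against 48.6, 47 and 51.3 in the KO libraries (log2 fold change -0.62, SE 0.155, edgeR adjusted p = 0.033). In club-like sums none of 8 Notch pathway genes, 11 glucocorticoid response genes or 4 mucous and antimicrobial genes tested was called by edgeR, with 2, 2 and 1 at an unadjusted p under 0.05 and 0 of each with DESeq2.

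In ciliated-like sums 7 of 29 tested secretory genes fell and 0 rose, against 0.364% lower and 0.0324% higher among 12355 genes. The list's median log2 fold change was -0.75, against 0.01 for all genes. Aldh1a1, a retinaldehyde dehydrogenase, fell from 249 ± 65.2 to 75.2 ± 6.14 CPM (log2 fold change -1.73, edgeR adjusted p = 0.00387), and Gsta3, Gabrp and Chad fell by 1.62, 1.55 and 1.47. The summed list was at 11999 and 13676 CPM in the Het against 8704, 7396 and 7109 in the KO libraries, beside the lower Scgb1a1 of the same barcodes. Of 14 ciliated cell genes, which also named these clusters, Tppp3 (a tubulin-binding protein) was the 1 called, with a log2 fold change of -0.83 (edgeR adjusted p = 0.0373). Without KO2, 0 secretory genes were called in these sums, without Het2, 1 was, and without KO1, 15 were.

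In epithelial sums 13 of 29 secretory genes fell and 0 rose, against 3.82% lower and 2.34% higher among all 14981 genes. Cyp4b1, an airway cytochrome P450, fell by 2.17 on the log2 scale (SE 0.31, edgeR adjusted p = 0.0102). In the same sums 4 of 11 alveolar type 1 genes and 7 of 20 AT2 genes fell, and 0 of either list rose. Without Het2, 0 secretory genes were called in epithelial sums, and without Het1, 3 were.

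In whole-library sums 13 of 29 secretory genes fell and 0 rose, against 2.98% lower and 1.21% higher among all genes. Pon1 (paraoxonase), Cbr2, Scnn1g (a sodium channel subunit) and Cyp4b1 led, with log2 fold changes of -1.69, -1.67, -1.33 and -1.11. In the same sums 6 of 11 alveolar type 1 genes and 8 of 20 AT2 genes fell and 0 rose, and all 14 ciliated cell genes had log2 fold changes under 0, of which 1 was called. Among proposed secretoglobin binding proteins, 2 of 9 tested fell: Marco, a macrophage scavenger receptor, from 24.9 ± 5.62 to 5.62 ± 1.46 CPM (edgeR adjusted p = 0.0199), and Fpr1, a formyl peptide receptor, by 1.14 on the log2 scale (edgeR adjusted p = 0.0188). Of 17 glucocorticoid response genes 3 fell (Lcn2, Sgk1 and Dusp1) and 0 rose. Foxp2 was the 1 of 20 epithelial transcription factors called, and it rose by 1.02 (edgeR adjusted p = 0.0349). Without Het1 or Het2 no secretory gene was called in these sums, with sex as a covariate 1 was, and without KO3 it was 3.

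Scgb1c1, the other family member with UMIs, was compared in AT2-like, alveolar type 1-like and airway cells and in red-cell barcodes, and was highest in AT2-like cells, at 0.657 and 0.451 UMIs per cell in the Het against 0.176, 0.189 and 0.232 in the KO libraries, and at most 0.148 in club-like cells and 0.000949 in red-cell barcodes. In AT2-like sums it fell, with a log2 fold change of -1.75 (SE 0.279, edgeR adjusted p = 0.00127). In those sums 2.38% of 9006 genes were called lower and 1.4% higher, or 214 lower and 126 higher, and scaling by library size alone gave 139 lower and 248 higher. Scgb1a1 and Scgb3a2 had log2 fold changes of -1.83 (SE 0.275) and -1.61 (SE 0.373) in AT2-like sums, and in these CPM both had groups that did not overlap, as did 16.8% of genes lower in KO. Without Het1 they were -1.19 and -0.26. Scgb3a1 did not pass the low-count filter there.

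Club-like cells were 5.42% and 4.72% of epithelial cells in the Het against 9.54%, 7.48% and 5.23% in the KO libraries. The means were 5.07% ± 0.498 (SD, n = 2) and 7.42% ± 2.16 (SD, n = 3), and a two-sided exact permutation test over libraries gave p = 0.3, where the smallest p the design allows is 0.1. The groups overlapped. These shares left out the unnamed low-depth airway cluster, with its 228 and 137 Het and 47, 47 and 7 KO cells. With stricter cell filters the club-like share was 8.18% and 13.8% in the Het against 12.7%, 12.5% and 4.49% in the KO libraries. The difference in means, KO minus Het, was then -1.09 percentage points instead of 2.35, so its direction depended on the filter. Of all kept cells, club-like cells were 0.842% and 0.665% in the Het and 0.819%, 0.68% and 0.566% in the KO libraries, and ciliated-like cells were 1.75% and 1.08% against 1.34%, 1.36% and 0.875%.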

How the data were processed

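The deposited matrices hold whole UMI counts, which the authors obtained by running Cell Ranger 4.0.0 on mm10, per the file headers and the submitters' processing notes. The barcode filter behind them is not given in the sources used here. Cells were kept from 500 detected genes upward where mitochondrial UMIs did not exceed 15%, and simulated doublets were used to remove 0.8% per 1000 cells. Red-cell barcodes had over 50% haemoglobin UMIs and under 500 genes. Cells were clustered (Leiden, resolution 1, 2000 variable genes, 30 components) without the 3 secretoglobins and named from marker lists. These names are rebuilt and may differ from the study's own, and the thresholds for naming were set with earlier results known.

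UMIs were summed per library and compared with edgeR 4.0.16 (TMM, filterByExpr, quasi-likelihood, two-sided, Benjamini-Hochberg over all genes). As a check of the code alone, it was also run on simulated counts with 200 changed genes. Those counts do not copy sums in which 1 cell holds most UMIs of a gene. The labels give 1 embryo per library, so n counts embryos. The members and gene lists were chosen with earlier results of these data known. Of each list, up to 4 called genes with at least 10 CPM and the largest change were named. The 5 most alike genes of each member were named. The ciliated-like sums, the removal of neuroendocrine-gene cells or of Scgb3a1-rich cells, and the count of all barcodes were chosen after seeing the data. Alternatives also included DESeq2, library size alone, no low-count filter, a replicate block, sex as a covariate, doublets kept, a stricter filter (1000 genes, 10% mitochondrial UMIs), resolutions 0.5 and 2, mixed cells (at least 3 markers of another lineage) left out and red-cell levels subtracted.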

Additional observations from a re-analysis of the deposited data

How the results depend on the processing

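All 225 alternative log2 fold changes of the 3 genes in 5 sums kept their direction, and 200 moved by less than the SD between libraries. Counts of called genes moved far more. In the whole library, 743 became 2130 with DESeq2, 40 with the replicate block, 3 with sex as a covariate and 0 to 791 with a library left out. In epithelial sums, 924 became 1878 with no low-count filter, 1681 with the replicate block, 206 without mixed cells and 99 to 1288 with a library left out. In club-like sums, 69 became 37 with DESeq2, 182 with no low-count filter, 31 with sex as a covariate, 15 with doublets kept, 33 with stricter cell filters, 12 without neuroendocrine-gene cells and 0 without mixed cells (173 at an unadjusted p under 0.05 in edgeR). A library left out gave 53 to 85, and the replicate block 75. In AT2-like sums, 340 became 164 with DESeq2, 574 with no low-count filter, 723 with the replicate block, 133 with sex as a covariate, 101 at resolution 2, 165 without mixed cells and 107 to 576 with a library left out. In ciliated-like sums, 49 became 80 with DESeq2, 355 with no low-count filter, 442 with the replicate block, 100 with doublets kept, 5 without mixed cells and 6 to 133 with a library left out. The 0 calls without Het2 in the whole library stood beside 2635 genes at an unadjusted p under 0.05 in edgeR. The cause was not tested.

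With sex as a covariate, Scgb1a1, Scgb3a1 and Scgb3a2 changed to -2.65, -3.18 and -2.01 in the whole library, Scgb1a1 and Scgb3a2 to -2.25 and -1.67 in epithelial sums, and Scgb1a1 and Scgb3a1 to -0.34 and -6.65 in club-like sums. The replicate block moved Scgb3a1 to -5.06, -5.09 and -7.9 in whole, epithelial and ciliated-like sums. Without mixed cells, epithelial values were -1.06, -2.52 and -0.63 for Scgb1a1, Scgb3a1 and Scgb3a2, Scgb1a1 was -2.37 in AT2-like sums, and Scgb1a1 and Scgb3a2 were -2.92 and -2.2 in ciliated-like sums. Stricter cell filters gave -1.23 for Scgb1a1 in club-like and -0.35 for Scgb3a2 in AT2-like sums. Without the 2 cells richest in Scgb3a1, Scgb1a1 was -1.94 in ciliated-like sums. With a library left out, Scgb3a1 ranged from -5.04 to -3.43 in the whole library, -4.99 to -3.29 in epithelial, -3.79 to -1.56 in club-like and -7.69 to -2.73 in ciliated-like sums. Scgb1a1 ranged from -2.3 to -1.93, -1.99 to -1.55, -0.93 to -0.47, -2.18 to -1.19 and -1.84 to -1.68 in whole, epithelial, club-like, AT2-like and ciliated-like sums, and Scgb3a2 from -1.74 to -1.22, -1.24 to -0.91, -0.61 to -0.02, -2.26 to -0.26 and -1.2 to -0.72. The difference in the share of club-like cells changed from 2.35 to -1.09 percentage points with stricter cell filters, and ranged from 1.28 to 3.44 with a library left out.

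The labels share only replicate numbers 1 and 2 between groups. Their deviations correlated at -0.107 and -0.121 and nothing else pairs the embryos, so the samples share only a number. Sub-clustering does not enter the epithelial sums, so resolutions 0.5 and 2 gave no value there. Club-like values rest on 22 to 39 cells per library.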
